A study of Mus musculus with 35 samples.

Results

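Motoneurons of the lumbar spinal cord are the cholinergic neurons that drive the muscles of the hindlimb. They are large cells with axons that leave the central nervous system, and they are known for heavy neurofilament loads, for trophic dependence on muscle and glia, and for dense synaptic input from local glutamatergic, glycinergic and GABAergic neurons and from descending monoaminergic fibres. The gene expression profile of such cells in mice without disease is described here, on 13 arrays of wild-type mice out of 35 arrays in the series. The members were all samples that carry the wild-type label, 6 mice aged 11 weeks and 7 mice aged 15 weeks. The strain of both wild-type groups was C57BL/6J, and the study's methods describe these mice as littermates of transgenic animals.

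The study was built to follow motoneurons of an amyotrophic lateral sclerosis (ALS) model under treatment with the growth factor G-CSF. The other 22 arrays came from mice of strain B6.Cg-Tg(SOD1-G93A)1Gur/J, which are hemizygous for a high-copy mutant human SOD1 transgene: 8 untreated animals at 11 weeks, 7 vehicle-treated animals at 15 weeks and 7 G-CSF-treated animals at 15 weeks. Vehicle and G-CSF came from a minipump under the skin, and whether wild-type mice carried a pump was not stated. Each array held amplified RNA from laser-cut, thionin-stained lumbar motoneurons of 1 mouse, so the arrays are biological replicates. The levels are log2 intensities from the GCRMA method, which subtracts a background estimated from probe sequence and normalizes arrays together. At each age wild-type mice differed from the other age in cohort as well as in weeks, and these cannot be told apart.

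The array carries 45101 probe sets, of which 34958 name 1 gene, 932 name several and 9211 name none. The 34958 probe sets cover 18194 genes, and each gene was described by its brightest probe set over the 13 arrays. A gene was called detected where it lay, on every one of the 13 arrays, over the 95th centile of 75 negative-control genes of the same array: 6 Y-linked genes, since the methods describe females, and 69 genes of other organs. This threshold lay between 3.55 and 4.18. By this rule 8394 genes (46.1%) were detected, 5664 were over the threshold on no array, and 4136 were over it on some arrays. The count depends on the rule. A fixed level of 6 left 4283 genes, the highest negative-control gene of each array left 1650, and the 20th centile of all values gave 14161. Krt10, a keratin of skin (6.56 ± 0.85, SD, n = 13), and Prm1, a sperm protein (5.41 ± 0.17), were over the threshold on all 13 arrays although they stood among the negative controls, so a level near 6 does not by itself show that a motoneuron uses a gene. For Prm1 the other 2 probe sets read 1.87 and 1.83.

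One wild-type array stood apart. Mouse 6 of week 11 correlated with the rest of its week at a mean r of 0.925, against 0.964 to 0.967 for the other 5 mice, and it had the highest detection threshold (4.18). It scored 150.8 on the first principal component of the wild-type arrays, against -28.5 to 12.6 for the others. Some results that turn on it are given with and without it, and levels include it unless stated. Without it, 8943 genes were detected.

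The label of the samples was checked first with genes that mark motoneurons and neurons. Nefl, the light neurofilament subunit, read 13.51, 13.51, 13.50, 13.48, 13.46 and 13.53 in mice 1 to 6 of week 11, and 13.49, 13.52, 13.55, 13.60, 13.60, 13.61 and 13.56 in mice 1 to 7 of week 15. It was the brightest gene of all 18194 in both weeks and after leaving out any 1 mouse. Snap25, a SNARE protein of transmitter release, lay between 12.14 and 12.36 in mice 1 to 5 of week 11, at 11.61 in mouse 6, and between 11.92 and 12.13 in week 15. Mouse 6 was the low one of week 11.

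Prph encodes peripherin, the intermediate filament of neurons with peripheral axons. Its levels were 9.48, 8.99, 9.45, 10.19, 9.11 and 9.46 at week 11 and 8.61, 8.88, 9.21, 9.55, 9.34, 9.30 and 9.69 at week 15. Isl1, a LIM homeodomain factor that specifies motoneurons, read 7.48, 8.19, 8.44, 8.62, 8.32 and 7.77 at week 11 and 8.18, 6.76, 7.72, 7.44, 7.12, 7.84 and 7.94 at week 15. Both genes were over the threshold in every mouse, and the 2 weeks overlapped for both. All 4 of these markers were detected.

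The promoters of Prph and Isl1 are shown because these genes tie the profile to its cell type and differ in base composition upstream of the start. The windows are the 250 bases before the RefSeq start on GRCm38.p6, 5′ to 3′ on the gene's strand, at chr15:99054924-99055173 on the plus strand for Prph and chr13:116309689-116309938 on the minus strand for Isl1. Capitals mark TATAAA in the first and the CG dinucleotides in the second.
Prph: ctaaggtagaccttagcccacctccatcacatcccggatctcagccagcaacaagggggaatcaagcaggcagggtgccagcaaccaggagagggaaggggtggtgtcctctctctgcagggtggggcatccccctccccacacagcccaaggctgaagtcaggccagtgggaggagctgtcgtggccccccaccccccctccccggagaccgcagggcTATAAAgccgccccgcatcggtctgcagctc
Isl1: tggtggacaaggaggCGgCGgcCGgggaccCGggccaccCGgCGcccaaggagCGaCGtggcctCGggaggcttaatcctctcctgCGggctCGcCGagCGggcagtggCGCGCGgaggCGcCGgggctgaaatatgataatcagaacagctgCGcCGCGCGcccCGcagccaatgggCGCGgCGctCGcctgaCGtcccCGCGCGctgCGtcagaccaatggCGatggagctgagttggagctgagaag
In the Prph window TATAAA began 31 bases before the start, and the window held 7 CG at a GC content of 65.2%, a ratio of observed to expected CG of 0.266. The Isl1 window held 33 CG at 71.2% GC, a ratio of 1.055, and TATAAA on neither strand. Of 27025 such windows in the mouse, 12.977% held TATAAA on either strand and 2.357% held it on the gene's strand from 45 to 16 bases before the start. The match is a description of these letters and shows nothing of what binds there.

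Of 19 motoneuron marker genes measured, 16 were detected. The brightest were Nefh, the heavy neurofilament subunit (12.41 ± 0.53), Calcb, a calcitonin gene-related peptide (12.01 ± 0.15), and Chodl, a lectin-like membrane protein of fast motoneurons (11.16 ± 0.29), all as mean ± SD over 13 mice. Rbfox3, the NeuN antigen, followed at 10.61 ± 0.24, the vesicle protein Sv2b at 10.51 ± 0.49, the GDNF receptor kinase Ret at 10.21 ± 0.24 and the nuclear receptor Esrrg at 9.96 ± 0.34. Uts2, the peptide urotensin 2, read 9.12 ± 0.35, and Mmp9, a matrix protease of fast motoneurons, read 7.82 ± 0.39. The homeobox genes Mnx1 (6.32 ± 0.47) and Isl2 (4.74 ± 0.39) were detected at low intensity.

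The cholinergic genes did not all reach the threshold. Chat, the enzyme that makes acetylcholine, has 1 probe set on the array, and it lay between 2.49 and 3.91, over the threshold in 0 of 13 mice. Slc18a3, the vesicular acetylcholine transporter, lay between 3.67 and 6.27 and was over the threshold in 11 mice. Ache, which breaks acetylcholine down, was detected at 6.64 ± 0.74 and its membrane anchor Prima1 at 7.03 ± 1.02. Slc5a7, the choline transporter, read 4.74, 4.81, 3.80, 5.57, 4.54 and 5.67 at week 11 and 5.38, 6.92, 7.14, 6.48, 7.61, 5.93 and 7.01 at week 15, so that 6 of the 7 older mice lay over every younger one. How many of all genes separate the weeks to this degree was not counted. Aldh1a2, a retinoic acid enzyme, was over the threshold in no mouse (2.36). A low probe set bounds what this array can read for a gene and does not show that the transcript was missing.

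Among 15 general neuron genes, all 15 were detected, from Syp at 5.58 ± 0.25 and Syt1 at 5.93 ± 0.85 up to Nefl at 13.53 ± 0.05. Of 16 interneuron genes, 5 were detected. These were the vesicular glutamate transporter Slc17a6 (9.46 ± 0.81), calretinin Calb2 (9.04 ± 0.18), the vesicular GABA and glycine transporter Slc32a1 (8.40 ± 0.48), the glycine transporter Slc6a5 (8.19 ± 0.82) and parvalbumin Pvalb (8.13 ± 0.78). The GABA-synthesizing enzymes Gad1 (4.49, over the threshold in 9 mice) and Gad2 (4.15, in 11 mice), the peptides Penk, Sst, Npy, Tac1 and Pdyn and the factor En1 were not detected on all arrays. Slc6a5 read 9.84, 9.05, 8.79, 9.36, 8.16 and 7.33 at week 11 and between 7.47 and 8.25 at week 15. In bulk RNA of this kind, fewer cells of a type and less RNA per cell cannot be told apart, and the cell that supplied each transcript was not measured.

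Glial transcripts were present in the dissected material. Of 12 oligodendrocyte genes 8 were detected, with the myelin genes Mbp (12.05 ± 0.36), Cnp (11.15 ± 0.39) and Mobp (9.40 ± 1.02) the brightest, while Mag and Mog were over the threshold in 12 and 11 mice. Mbp is covered by 8 probe sets, and they ranged from 12.05 down to 4.08. Of 12 astrocyte genes 8 were detected, among them Aldoc (11.22 ± 0.34), S100b (10.70 ± 0.29), the gap junction gene Gja1 (9.02 ± 0.62) and the water channel Aqp4 (8.58 ± 0.54). Gfap, the filament of reactive astrocytes, ranged from 3.48 to 6.24 and was over the threshold in 11 mice. Aldoc and S100b also occur in neurons, so these 2 do not by themselves mark astrocytes.

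Of 15 microglial genes 3 were detected, namely Csf1r (7.36 ± 0.57), Ctss (6.86 ± 1.13) and Laptm5 (4.71 ± 0.38). Of the others Aif1, Itgam, P2ry12, Cd68 and C1qa were over the threshold in no mouse and 7 were over it in some, C1qb in 12 mice, Cx3cr1 and Tyrobp in 7 each, Trem2 in 5, Fcer1g in 3, Tmem119 in 2 and C1qc in 1. Of 7 oligodendrocyte precursor genes only Olig1 was detected (8.31 ± 0.33), with Pdgfra and Cspg4 at 4.01 each and over the threshold in 8 and 9 mice. Endothelial genes gave 4 of 10, led by the glucose transporter Slc2a1 (8.90 ± 0.40), with Pecam1, Tek and Emcn over the threshold in no mouse. Mural and fibroblast genes gave 2 of 11 (Dcn and Rgs5), ependymal genes 2 of 7 and Schwann cell genes 2 of 5, of which Pmp22 read 10.65 ± 0.31. None of 6 lymphocyte genes and none of 4 red blood cell genes was detected. Hba-a1, the alpha globin of red cells, read 2.63.

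**Figure D1:**
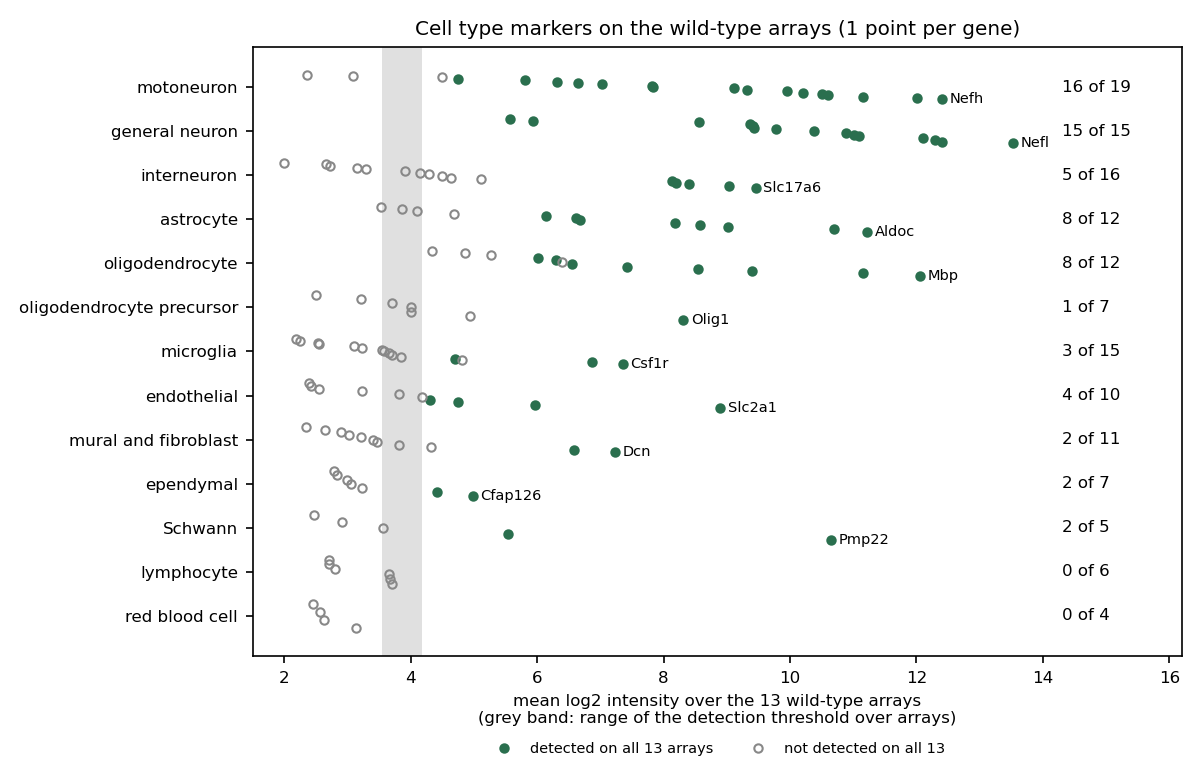
Mean log2 intensity over the 13 wild-type arrays (x axis) of each measured marker gene, in 1 row per cell type. Filled points were over the detection threshold on all 13 arrays, open points were not, the grey band spans the thresholds of the arrays (3.55 to 4.18), and the count at the right gives detected of measured genes. Motoneuron and general neuron rows (16 of 19 and 15 of 15) are filled nearly throughout, oligodendrocyte and astrocyte rows (8 of 12 each) are filled in part, and lymphocyte and red blood cell rows hold open points only.

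The brightest genes were ranked next. A rank here orders the signal of probe sets, and probes differ in how they bind, so it does not order amounts of transcript between genes. The 100 brightest genes of week 11 and the 100 brightest of week 15 shared 86, and the top 25 of each week shared 21, the top 500 shared 443 and the top 1000 shared 872. The 86 shared genes had means between 11.86 and 13.53. The means of the 2 weeks correlated at r = 0.989 over all 18194 genes and at 0.972 over detected genes, a description across genes. The median absolute difference was 0.155 for the 100 brightest genes, 0.264 for detected genes and 0.1755 for all genes.

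Of the 86 genes, 34 belonged to a list and 52 to none. The lists differ in length, and over all genes the share was 86 of 18194. Among the 86 were 5 of 26 tubulin, stathmin and microtubule-associated genes, 4 of 15 general neuron genes and 3 of 10 intermediate filament genes. The respiratory chain and ATP synthase gave the largest count though not the largest share, 15 genes of 101 measured. They covered complex I (Ndufa1, Ndufa13, Ndufb8, Ndufc2, Ndufv2 and the mitochondrially encoded ND5), complex III (Uqcrb), cytochrome c oxidase (Cox5a, Cox5b, Cox6a1, Cox6b1, Cox7a2) and ATP synthase (Atp5g3, Atp5h, Atp5j2). Uqcrb read 13.11 ± 0.23 and Cox6a1 13.11 ± 0.14. Tubulins, stathmins and microtubule-associated proteins gave 5 genes (Tuba1a at 13.38 ± 0.07, Tuba4a at 12.98 ± 0.11, Stmn3 at 12.98 ± 0.10, Tubb2a at 12.27 ± 0.09 and Map1lc3a at 11.93 ± 0.18). All 3 neurofilament subunits Nefl, Nefm (12.30 ± 0.57) and Nefh were among the 86. Nefm and Nefh spread more in week 11 (SD 0.84 and 0.75) than in week 15 (0.17 and 0.16). Their lowest values of 10.48 and 10.72 fell in week 11, and a single low array largely made that spread. The general neuron list, which holds both genes, averaged 9.28 in mouse 6 of week 11. In the other mice of that week it averaged 10.15 to 10.58.

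Further genes of this set, not all of which are named here, came from other groups or from no list. Hspa8, a constitutive heat shock protein, read 13.22 ± 0.11, and the chaperone Hsp90aa1 12.38 ± 0.16. Pgk1 (12.40 ± 0.20) and Ldhb (12.31 ± 0.12) stood for glycolysis and lactate metabolism, Cplx1, the complexin that clamps vesicle fusion, read 12.60 ± 0.18, and Calcb was the only peptide. Atp1b1, the beta subunit of the sodium pump that restores ion gradients after firing, was the third of all genes at 13.30. Rtn3 (13.15), a reticulon of the endoplasmic reticulum, Ndrg4 (13.04) and the signalling adaptor Ywhab (12.96) also stood in the top 25, as did Ndn (12.52), the imprinted necdin gene.

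**Figure D2:**
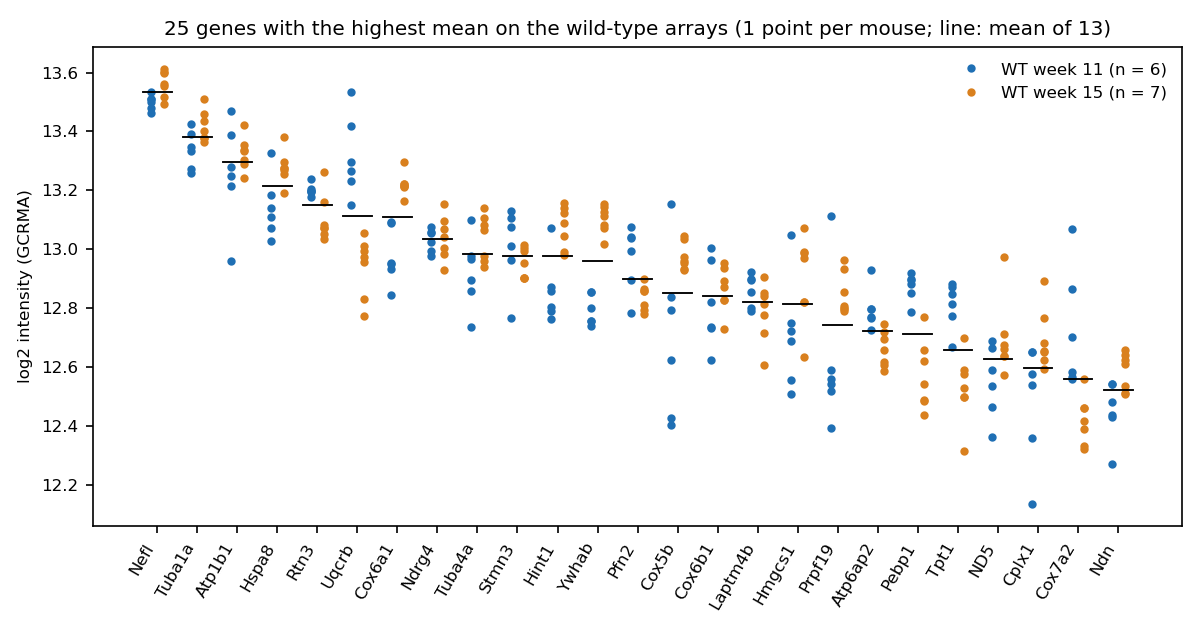
Log2 intensity (y axis) of the 25 genes with the highest mean over the wild-type arrays (x axis, in order of the mean). Each point is 1 mouse, blue for week 11 (n = 6) and orange for week 15 (n = 7), and the black line is the mean of the 13 mice. Nefl leads in both weeks between 13.46 and 13.61, and Prpf19, Hint1 and Atp6ap2 each show 1 blue point, mouse 6, over the rest of its week.

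Which genes led the list turned on the choice of probe set. Probe sets whose names end in _s_at, _x_at or _a_at can match several transcripts. They made up 20.8% of the brightest probe sets of all genes, 29.1% of those of detected genes, and 82 of the top 100. Without such probe sets the 2 weeks shared 79 of their top 100, but 24 of these were among the original 86, and with the median of a gene's probe sets they shared 85, of which 44 were. Leaving out mouse 6 of week 11 gave 85 shared genes, 81 of them among the 86. For 5678 detected genes with several probe sets, the median gap from brightest to dimmest was 3.62 log2 units, and in 69.3% the dimmest lay under 4. Isl1, for instance, read 7.83 and 6.32 with its 2 probe sets, Snap25 12.10 and 8.80, and the 4 probe sets of Prph 9.33, 5.70, 4.64 and 4.21.

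The spread between mice was smaller among the brightest genes than among detected genes. The median SD within a week was 0.127 for the 100 brightest genes, 0.190 for the top 500 and 0.379 for detected genes. For genes not detected it was 0.244, so the spread did not fall steadily with level. The brightest genes lay near the upper end of the values, where the highest mean of any probe set outside the array's controls was 13.67, and whether the scale narrows the spread there was not tested. Nefl had the smallest spread of the top 500 (SD 0.038), followed by Ywhab (0.049), Tuba1a (0.059), Ppp2r1a (a scaffold subunit of protein phosphatase 2A, 0.0595), Cfl1 (cofilin, 0.0602) and Ndrg4 (0.0607). At the other end, Mrpl42, a mitochondrial ribosomal protein, had an SD of 1.23 and Pfdn2, a prefoldin subunit, 1.21. Mouse 6 of week 11 lay farthest from its week in 10 of the 15 most variable detected genes. Pfdn2 ranged from 4.99 to 9.98 with an SD of 1.79 in week 11 and 0.19 in week 15.

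Without mouse 6 the median SD of detected genes was 0.316, and 5 of the 15 genes stayed among the most variable. The leading genes were then Nfatc2ip (SD 1.19), Zfp383 (1.15) and 9530059O14Rik, followed among named neuronal genes by the A-type potassium channel Kcnd3 (1.07) and the peptide neurotensin Nts (1.07).

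**Figure D3:**
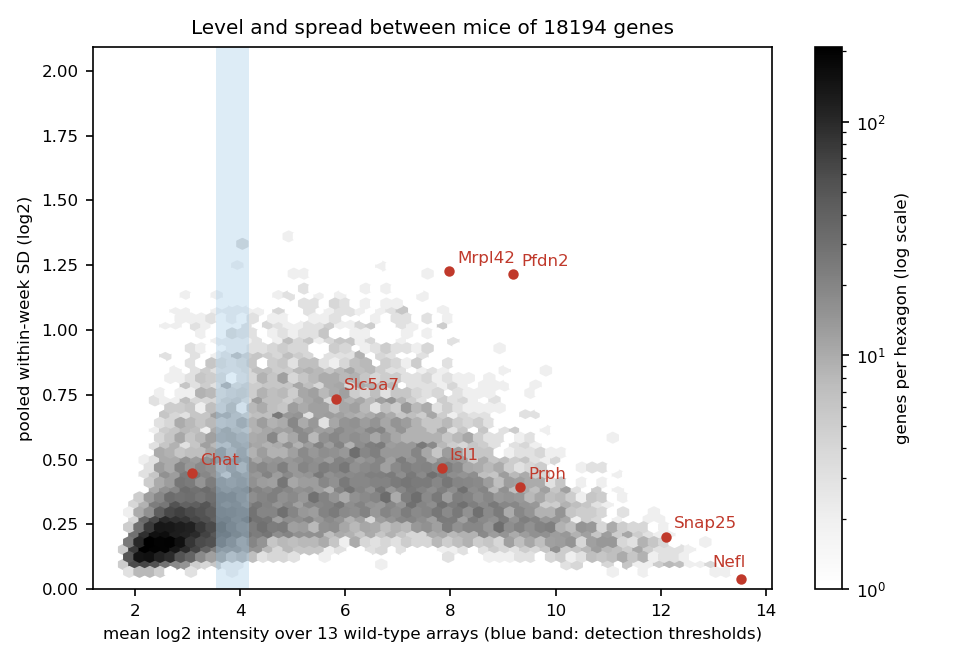
Mean log2 intensity over the 13 wild-type arrays (x axis) against the pooled SD between mice of the same week (y axis, log2) for 18194 genes, with grey shading for the number of genes per hexagon on a log scale and a blue band for the thresholds of detection. The shaded cloud narrows to the right, near the upper end of the scale, where Nefl sits at an SD of 0.038, and Mrpl42 and Pfdn2 lie over the cloud at 1.23 and 1.21.

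Receptor genes decide which signals a cell can answer. Of 231 receptor genes measured, 91 (39.4%) were detected, against 46.1% of all genes. For fast glutamate transmission 4 of 9 AMPA and kainate receptor genes were detected. Gria3 read 9.63 ± 0.19, Gria4 9.01 ± 0.74, Gria2, the subunit that limits calcium entry, 8.64 ± 0.21, and Grik2 4.77 ± 0.54. Gria1 (4.23) was over the threshold in 10 mice. The spread of Gria4 came largely from mouse 6 of week 11, at 6.84 against 8.44 to 9.69 in the other 12. Of 7 NMDA and delta receptor genes 5 were detected, led by Grid1 (7.40 ± 0.37) and Grin3b (7.28 ± 0.28). Of 6 metabotropic glutamate receptor genes 3 were, with Grm7 (9.17 ± 0.38) the brightest.

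The inhibitory side was represented by glycine and GABA receptors. Glrb, the anchoring beta subunit of glycine receptors, read 10.54 ± 0.24 and the adult alpha subunit Glra1 9.37 ± 0.84, while Glra2, Glra3 and Glra4 were not detected. Glra1 lay between 7.78 and 8.86 in the 6 mice of week 11 and between 9.71 and 10.48 in the 7 mice of week 15, so the weeks did not overlap. The share of all genes without such overlap was not counted. Between the weeks 5.38% of genes at their brightest probe set were called in limma, Glra1 among them. Of 15 GABA-A receptor genes 7 were detected: Gabra2 (9.38 ± 0.29), Gabrg1 (8.65 ± 0.71), Gabrb2 (8.48 ± 0.53), Gabrb1 (8.42 ± 0.62), Gabra5 (8.01 ± 0.52), Gabra3 (6.19 ± 0.58) and Gabrp (5.73 ± 0.15). The GABA-B subunit Gabbr1 read 10.21 ± 0.40.

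Receptors for acetylcholine and the amines tune how excitable the cell is. Of 15 nicotinic receptor genes 1 was detected, Chrna7 (8.68 ± 0.37), and Chrnb2 was over the threshold in 12 mice. None of 3 muscarinic receptor genes was detected. Of 13 serotonin receptor genes 3 were, namely Htr2c (9.42 ± 0.40), Htr7 (6.73 ± 0.32) and the channel-forming Htr3a (4.81 ± 0.59). Htr2c lay between 9.0 and 10.34, and mouse 6 of week 11 was the highest. Adrenergic, dopamine and histamine receptors gave 2 of 10 (Adra2c at 5.93 and Hrh1 at 5.72), purine receptors 3 of 16 (P2rx4 at 8.08 ± 0.75) and opioid and cannabinoid receptors 1 of 6 (Oprl1 at 7.45 ± 0.73).

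Of 38 neuropeptide receptor genes 8 were detected. The brightest was Trhr, the receptor of thyrotropin-releasing hormone, a peptide of descending raphe fibres. Trhr read 9.73, 9.92, 10.22, 9.85, 10.52 and 9.22 at week 11 and between 9.90 and 10.37 at week 15, so the weeks overlapped. Adcyap1r1, the PACAP receptor, followed at 8.20 ± 0.54 and the melanin-concentrating hormone receptor Mchr1 at 7.42 ± 0.33. Ramp1 (6.66 ± 0.58) and Ramp2 (6.53 ± 0.46), which give calcitonin-family receptors their ligand preference, were detected too.

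Trophic factor receptors were detected for 18 of 36 genes. Lifr, through which LIF, CNTF and cardiotrophin signal, read 10.83 ± 0.18, and its partner Il6st 7.42 ± 0.55. The GDNF receptor pair Ret (10.21 ± 0.24) and Gfra1 (9.19 ± 0.31) and the BDNF receptor Ntrk2 (9.51 ± 0.58) followed. Ntrk2 was at 7.88 in mouse 6 of week 11 and between 9.22 and 10.17 in the other 12. Csf3r, the receptor of G-CSF, lay between 2.63 and 3.66 and was over the threshold in 0 of 13 mice. Among axon guidance receptors 19 of 26 were detected, led by the semaphorin co-receptors Nrp1 (8.73 ± 0.30) and Nrp2 (8.62 ± 0.74) and by Neo1 (8.07 ± 0.48).

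Nuclear hormone receptors gave 14 of 25. After Esrrg came the mineralocorticoid receptor Nr3c2 (9.0 ± 0.28), the progesterone receptor Pgr (8.86 ± 0.45) and the thyroid hormone receptor Thra (7.75 ± 0.19), while the oestrogen receptor Esr1 (5.22) was over the threshold in 12 mice. Pgr lay between 8.05 and 8.96 at week 11 and between 8.80 and 9.60 at week 15, with an overlap at the edge.

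**Figure D4:**
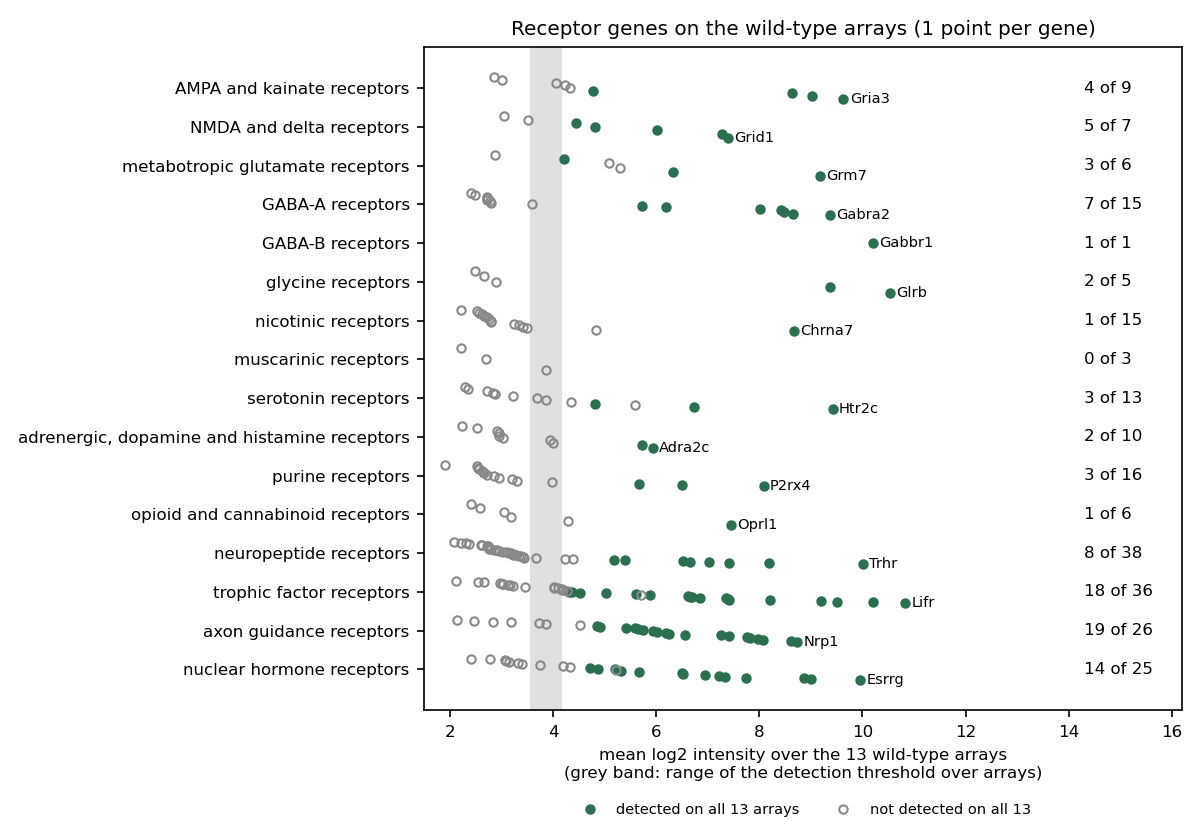
Mean log2 intensity over the 13 wild-type arrays (x axis) of each measured receptor gene, in 1 row per family. Filled points were detected on all 13 arrays, open points were not, the grey band spans the thresholds (3.55 to 4.18), and the count at the right gives detected of measured genes. Axon guidance receptors (19 of 26) and NMDA and delta receptors (5 of 7) are filled for the most part, and nicotinic (1 of 15) and muscarinic receptors (0 of 3) are nearly all open.

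Ion channels set how a motoneuron fires. Of 128 channel genes 69 (53.9%) were detected. Of 12 sodium channel genes 5 were: Scn1a (11.57 ± 0.26) and Scn8a (9.64 ± 0.71), which carry action potentials, Scn2a (7.46 ± 0.51), the auxiliary subunit Scn4b (10.91 ± 0.33) and the leak channel Nalcn (9.36 ± 0.16). The sensory neuron channels Scn10a and Scn11a were over the threshold in 0 and 1 mice. Of 33 Kv potassium channel genes 20 were detected, with Kcna1 (11.70 ± 0.35) and Kcna2 (9.77 ± 0.32) of the juxtaparanode, their beta subunit Kcnab1 (10.48 ± 0.35) and the fast-firing channel Kcnc1 (9.95 ± 0.23) the brightest. Kcna1 was at 10.69 in mouse 6 of week 11 and between 11.52 and 12.18 elsewhere.

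Voltage-gated calcium channels gave 9 of 16 genes. The auxiliary subunits Cacna2d2 (9.56 ± 0.55), Cacna2d3 (8.79 ± 0.20) and Cacnb4 (8.46 ± 0.32) were brighter on their probe sets than the pore subunit Cacna1a (6.29 ± 1.18), a statement on signal and not on transcript number. Inward rectifier and two-pore potassium channels gave 10 of 24, led by Kcnj14 (9.94 ± 0.51), which is known from motor nuclei, and calcium- and sodium-activated potassium channels gave 6 of 10, with the SK channel Kcnn2 at 6.68 ± 0.43 and Kcnn3 over the threshold in no mouse. HCN, TRP and acid-sensing channels gave 10 of 19. Slc12a5, the chloride extruder that makes glycine and GABA hyperpolarizing, read 12.12 ± 0.42, and its counterpart Slc12a2 read 9.19 ± 0.25.

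Transcription factors set which genes a cell can use, and 40 of 139 measured (28.8%) were detected. Of 25 motoneuron factors 10 were detected: Esrrg, Meis2 (8.20 ± 0.45), Pbx3 (7.87 ± 0.69), Isl1, Zfp804a (7.35 ± 0.24), Lhx4 (6.98 ± 0.30), Mnx1, Esrrb (4.86 ± 0.14), Isl2 and Meis1 (4.65 ± 0.58). Foxp1, which marks limb-innervating motor columns, read 5.99 and was over the threshold in 11 mice. Of 23 spinal interneuron factors 2 were detected, Gata2 (4.74 ± 0.28) and Prrxl1 (4.47 ± 0.46). None of 18 forebrain and sensory factors was detected.

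Of 33 Hox genes, which encode position along the body axis, 14 were detected. The brightest were Hoxa9 (10.15 ± 0.33), Hoxc8 (8.63 ± 0.39), Hoxc10 (7.29 ± 0.26) and Hoxa5 (7.27 ± 0.37), and no member of the last paralog groups, which pattern the sacral cord and tail, was detected. Of 21 glial factors 7 were detected, with Nfia (10.02 ± 0.36), Nfib (8.54 ± 0.37) and Olig1 the brightest, and Sox10, which drives myelin genes, at 6.29 ± 0.40. Olig2 and Sox9 were over the threshold in 6 and 2 mice. Of 21 activity-dependent factors 7 were detected, led by Fos (8.48 ± 0.88), Cebpb (8.35 ± 0.46) and Jun (8.32 ± 0.44). Fos stood at 6.12 in mouse 6 of week 11 and at 7.24 in mouse 7 of week 15, and between 8.30 and 9.24 in the other 11.

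**Figure D5:**
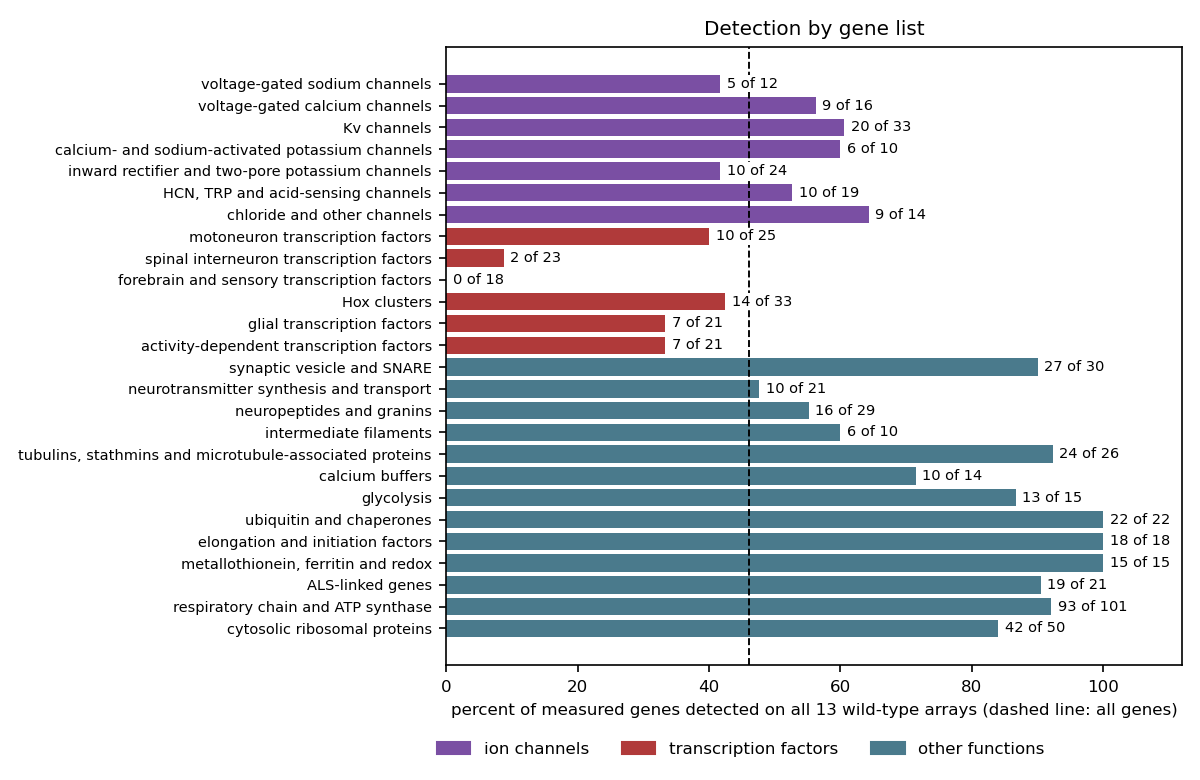
Percent of the measured genes of each list that were detected on all 13 wild-type arrays (x axis, from 0), with the count beside each bar. Purple bars are ion channels, red bars transcription factors and blue bars other functions, and the dashed line is the share of all 18194 genes (46.1%). Chaperones, translation factors and redox genes reach 100%, spinal interneuron factors stand at 2 of 23, and forebrain and sensory factors at 0 of 18.

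Of 368 genes of other functions, mostly general ones, 311 (84.5%) were detected. All 22 ubiquitin and chaperone genes, all 18 elongation and initiation factors and all 15 metallothionein, ferritin and redox genes were detected, the last including Sod1 (12.45 ± 0.14), the dismutase mutated in a familial form of ALS, Gpx4 (11.24 ± 0.27) and the ferritin heavy chain Fth1 (10.83 ± 0.36). Respiratory chain and ATP synthase genes gave 93 of 101, cytosolic ribosomal proteins 42 of 50 and glycolysis 13 of 15. Of 30 synaptic vesicle and SNARE genes 27 were detected, among them Syt11 (12.13 ± 0.46), the ATPase Nsf (11.33 ± 0.46), Rab3a (11.07 ± 0.14) and Vamp1 (10.85 ± 0.67). Peptides and granins gave 16 of 29, with Cpe, the carboxypeptidase that processes them, at 11.35 ± 0.24 and Chgb at 11.18 ± 0.26.

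Calcium-binding proteins are often named where motoneuron vulnerability is discussed. Of 14 such genes 10 were detected, S100a10 at 11.17 ± 0.22 and Vsnl1 at 10.59 ± 0.26, while Calb1 (5.12) was over the threshold in 9 mice. Of 21 genes linked to ALS 19 were detected, among them Tuba4a, Matr3 (11.73 ± 0.18), Stmn2 (11.01 ± 0.55), Kif5a (10.54 ± 0.27) and Ubqln2 (10.44 ± 0.24), and 2 were not, Ang and Ccnf.

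The 2 weeks were compared with limma on 31352 probe sets that passed the study's filter on intensity and SD, with all 35 arrays sharing 1 estimate of the spread, and a call needed an adjusted p under 0.1 and a fold of at least 1.5. Week 15 differed from week 11 in 5.56% of filtered probe sets (3.29% higher and 2.26% lower) and in 5.38% of the 13697 genes whose brightest probe set passed the filter (2.51% higher and 2.87% lower). Without mouse 6 of week 11 the share that was higher among the called probe sets moved from 59.3% to 49.2%, and 2.5% of genes were called higher and 4.31% lower. Of the 100 brightest genes, 27 passed the filter and 3 were called, all higher at week 15: Cdk16, a cyclin-dependent kinase of neurons (log2 difference 0.67, SE 0.12, adjusted p = 0.000921 in limma), Pabpn1, the nuclear poly(A)-binding protein (0.66, SE 0.14, adjusted p = 0.00576) and Syt11 (0.63, SE 0.18, adjusted p = 0.0346). Syt11 was no longer called without mouse 6 of week 11. With no filter the same count was 3 of 100, against 3.62% of all 18194 genes.

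Among 18 motoneuron markers tested, 2 were higher at week 15 and 1 was lower. Slc5a7 rose by 1.79 (SE 0.43, adjusted p = 0.0123 in limma), and this call held with any 1 mouse left out. Prima1 was higher by 1.45 (adjusted p = 0.0933) and Slc18a3 lower by 0.88 (adjusted p = 0.0674), and both calls were lost on leaving out single mice, Prima1 also without mouse 6 of week 11 (adjusted p = 0.214). Isl1 (-0.57, adjusted p = 0.415) and Prph (-0.22, adjusted p = 0.743) were not called. Glra1 rose by 1.48 (SE 0.25, adjusted p = 0.00066) and the channels Cacna1a by 1.72 (SE 0.37, adjusted p = 0.00464) and Kcnma1 by 1.65 (SE 0.41, adjusted p = 0.0159).

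Some markers of other cells were called between the same groups, where 2.51% of all genes tested were called higher and 2.87% lower. Called higher at week 15 were 1 of 12 astrocyte, 1 of 8 endothelial and 1 of 5 ependymal genes tested. None of 6 oligodendrocyte precursor, 8 mural and fibroblast and 5 Schwann cell genes tested was called. Of 12 oligodendrocyte genes tested 3 were called higher at week 15 (Cnp, Mobp and Mag), with the mean of the list between 6.63 and 7.69 in mice of week 11 and between 7.32 and 7.69 in week 15. Of 12 interneuron genes 3 were lower (Slc6a5, Pvalb and Gad1). The mean of the 16 measured interneuron genes lay between 5.19 and 5.87 in week 11 and between 4.85 and 5.04 in week 15. Of these 16 genes, 5 were detected on all arrays. The calls of Cnp and Slc6a5 were lost on leaving out single mice, that of Cnp also without mouse 6 of week 11. Of 13 microglial genes 1 was lower, Ctss. The mean of the 15 measured microglial genes lay between 3.86 and 4.26 in week 11 and between 3.55 and 3.87 in week 15. The 3′ probe set for 18S ribosomal RNA differed too, at 9.48 ± 0.82 in week 11 and 11.78 ± 0.37 in week 15. The gap from 3′ to 5′ probe sets was 5.90 and 6.53 for Actb, and 5.74 ± 0.88 and 5.81 ± 0.33 for Gapdh. For Gapdh, mouse 6 of week 11 stood at 7.38, and the other mice of that week lay between 5.01 and 6.02. The Gapdh medians were 5.43 in week 11 and 5.75 in week 15. The part of these in the differences between weeks was not tested.

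Transgenic mice were used to ask how far the profile extends beyond wild type. The mouse Sod1 probe set read 12.55 ± 0.13 and 12.36 ± 0.06 in wild-type mice of weeks 11 and 15, and 12.70 ± 0.07, 12.40 ± 0.17 and 12.38 ± 0.06 in transgenic mice of week 11, vehicle and G-CSF. Since the transgene is human, this does not check the labels. Of the 8394 genes detected in wild-type mice, 7091 (84.5%) were over the threshold on all 22 transgenic arrays too, and 0 were over it on none of them. Over all 18194 genes, 7331 were over the threshold on all 22. A rule over 22 arrays is stricter than one over 13, so genes short of it are not shown to be lost. No gene was over the threshold on all transgenic arrays and on no wild-type array. Probe sets were chosen on the wild-type arrays, so a gain on another probe set would be missed. Rules of all arrays against none count only complete differences, so counts of 0 here say little of smaller ones.

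To see whether the brightest wild-type genes differed in transgenic mice, ranks were taken from the wild-type arrays of the other week. Those arrays did not enter the means compared, but they shared in the estimate of the spread, and the probe set of each gene was chosen on all 13 arrays. At week 11, 1.32% of filtered probe sets and 1.72% of genes at their brightest probe set were called against wild type (1.52% higher and 0.204% lower). The 413 probe sets called became 232 without mouse 6 of week 11 and 147 to 563 over all single mice left out. Of the 100 brightest genes 30 passed the filter and 1 was called, Tmem255a (-0.59, SE 0.14, adjusted p = 0.0331 in limma), a call lost without mouse 6 of week 11 through its fold. At week 15, vehicle-treated mice differed in 5.91% of filtered probe sets and in 7.31% of genes. Of the 100 brightest 28 passed and 2 were called lower, Cd24a (-0.74, SE 0.21, adjusted p = 0.0361) and Nefm (-0.90, SE 0.29, adjusted p = 0.0684). The Nefm call was lost on leaving out any of 5 mice, and that of Cd24a without mouse 3 of the vehicle group.

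Of the 500 brightest wild-type genes 332 passed the filter at week 15 and 42 (12.7%) were called, 0 higher and 42 lower, where 1.93% of all genes were called higher and 5.37% lower. Among the 7936 detected genes tested, 2.22% were called higher and 8.32% lower (10.5% in all). Detection rested on the wild-type arrays, including those of week 15 compared here, and on no transgenic array. This can tilt the share of detected genes towards lower calls. With no filter 42 of the 500 were called against 4.9% of all genes. With probe set and rank taken from the wild-type arrays of week 11 alone, an alternative added after seeing the data, 333 of the 500 passed and 41 were called, 1 higher and 40 lower. The median log2 difference of the 332 was -0.23, against -0.01 over all genes tested. Chodl was lower (log2 difference -2.89, SE 0.33, adjusted p = 4.48e-06 in limma), with any 1 mouse left out too, and so was Kcna1 (-0.72, SE 0.19, adjusted p = 0.0223), whose call was lost without mouse 6 of the vehicle group. At week 11, 328 of the 500 passed and 6 were called, 2 higher and 4 lower, and with probe set and rank from week 15 alone 329 passed and the counts were 6, 2 and 4. For the 100 brightest this choice gave 1 of 30 called at week 11 and 2 of 28 at week 15, as before. Of 13 microglial genes tested at week 15, 5 were higher in the vehicle-treated mice (Csf1r, Ctss, C1qb, Tyrobp and C1qc), beside 5 of 18 motoneuron markers that were lower and 1 that was higher. The mean of the 15 microglial genes lay between 3.86 and 4.88 in the vehicle-treated mice and between 3.55 and 3.87 in wild type of that week, with Aif1, Itgam and P2ry12 at group means of 2.27, 2.40 and 2.58 in the former, and the mean of the 19 motoneuron markers lay between 6.93 and 7.80 and between 7.88 and 8.19. The part of other cells in these differences was not tested.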

How the data were processed

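Laser-cut lumbar motoneurons of 35 mice were each read on an Affymetrix mouse genome array after consecutive rounds of T7 amplification. The authors deposited log2 intensities that Affymetrix Expression Console had made with GCRMA, per the labels and the study's methods. Arrays have no sequencing depth, so their number limits the precision. Groups came from the sample titles. Probe sets were named from the GEO platform annotation, and probe sets with several genes or none were left out. Levels are those of the brightest probe set per gene over the 13 wild-type arrays.

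Detection used the 95th centile of 75 negative-control genes of the same array. Contrasts were fitted with limma 3.58.1 in R 4.3.3 on the 5 group means of all 35 arrays, after the study's filter (over the 20th centile of all values, 2.40, on at least 4 arrays, and an SD of at least the 30th centile, 0.241). A probe set was called at p under 0.05, with an adjusted p (Benjamini-Hochberg) under 0.1 and at least a 1.5-fold difference. The fit was run on simulated data for week 15 against week 11 in wild type over 31352 probe sets. By p and adjusted p, 20.9% of 67 probe sets changed by 1.5-fold were found there. The shares were 52.2% of 67 changed by 2-fold and 93.9% of 66 changed by 4-fold. Recovery with the 1.5-fold rule, or with more probe sets changed, was not tested. Mice of different groups share replicate numbers, but the deviations of same-numbered mice correlated at -0.113 to -0.002, so the main fit did not pair them. Shared litters or handling were not tested, and counts with the number as a block are given below.

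The genes, lists and rules were chosen with earlier results of these data known. Named genes were the 25 brightest, the brightest detected members of each list and its defining members, and the 15 most and 10 least variable genes, and genes from the contrasts that stood in the lists or among the brightest. Cdk16, Pabpn1, Tmem255a and Cd24a were named after their values were seen. Promoter windows are from RefSeq, which held entries for Prph and Isl1. Alternatives covered the threshold, the probe set, the normalization, the filter, the test and single mice left out.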

Additional observations from a re-analysis of the deposited data

Results flagged for a closer look

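Of 78 sets of values tested for a mouse far from the rest of its week, 10 held one. Chance gives about 1 in 20 for independent sets. These sets share the same 13 arrays, so their count cannot be set against that rate. In 9 of the 10 cases it was mouse 6 of week 11. Its array had a median of 3.42 (others 3.22 to 3.25), an SD over probe sets of 2.131 (others 2.319 to 2.343) and a mean correlation with its own week of 0.925 (others 0.964 to 0.967). The mean of its motoneuron markers was 7.47, where the other 5 mice lay between 7.85 and 8.02, and that of its microglial genes 4.26, where they lay between 3.86 and 4.00. Among bright genes it stood high for Hint1, at 13.07 against 12.76 to 12.87, for Prpf19, at 13.11 against 12.39 to 12.59, and for Atp6ap2, at 12.93 against 12.73 to 12.80. It stood low for Snap25, at 11.61 against 12.14 to 12.36. The other case was mouse 7 of week 15, in which the mitochondrial gene ND5 read 12.97 and the other 6 mice read 12.57 to 12.71.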

How the results depend on the processing

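The count of detected genes (8394) moved with the threshold, to 14161 with the 20th centile, 4283 with a fixed level of 6 and 1650 with the highest negative control. The other alternatives kept it within 1.5-fold, and leaving out single mice gave 8400 to 8943. Detected receptors numbered 183, 41 and 16 under these 3 thresholds in turn, channels 107, 38 and 14, and transcription factors 94, 19 and 3. The count of genes among the 100 brightest at both weeks stayed between 79 and 87, and at 84 to 87 with single mice left out, but its members changed with the probe set. Of the mean levels recomputed for named genes, 399 moved by less than the spread between mice and 43 by more, all of the latter with another choice of probe set.

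For week 15 against week 11 in wild type, 1743 probe sets were called, 3827 with array weights and 1343 to 2100 with single mice left out. The highest count was that without mouse 6 of week 11, where 49.2% were higher at week 15 against 59.3% with it. For SOD1 against wild type at week 11, 413 were called, 694 with Tukey's comparison, 216 with quantile normalization, 1114 with array weights, 155 with the replicate number as a block, 232 without mouse 6 and 147 to 563 over all mice left out. At week 15, 1854 were called, 1174 with only the groups compared and 1259 to 2319 with single mice left out, and the share called higher was 41.1% with quantile normalization against 29% as deposited. The replicate block gave 1789 and 1703 for the first and the last of these contrasts. For the genes called in these contrasts, 3102 calls were kept under an alternative, 688 were lost and 0 reversed. The cause of these shifts was not tested. Probe sets near background limit what can be said of genes between levels of 4 and 6, and a transcript without a bright probe set cannot be told from one that is not made.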

Other observations

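Probe sets outside the description of genes held signal too. Of 9160 probe sets that name no gene, 883 were over the threshold on all 13 wild-type arrays, with the highest mean at 13.67, and of 932 that name several genes 376 were, with the highest mean at 13.56. Both maxima lay over that of Nefl (13.53), so the brightest probe set of these arrays carries no single gene name here.

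Without mouse 6 of week 11, lists gained members that this mouse alone had kept under the threshold. They were the claudin Cldn11 of myelin, the glutamate receptors Grik4, Grm3 and Grm5, the serotonin receptor Htr1b, the growth factor receptor Igf1r, the channels Scn2b, Scn3a, Cacna1d, Kcnn1 and Kcnk10, the factors Hoxc5, Hoxd8 and Id4, and Tppp.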
